A study of Mus musculus with 18 samples.

Results

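The products of Paneth cells other than the defensins were followed as 7 genes, *Lyz1*, *Lyz2*, *Mptx1*, *Mptx2*, *Ang4*, *Itln1* and *Mmp7*, of the 18838 genes listed in at least 1 of the 3 tables of the series. They were chosen by symbol, as lysozymes, pentraxins and other proteins that Paneth cells make, and all 7 are listed at each time point. RNA was measured in 18 bulk libraries from 6 mice, 3 WT (*Mtgr1*+/+) and 3 *Mtgr1*-/-, with 3 libraries in each of 6 groups. Each mouse gave duodenal crypts (day 0), enteroids after 24 hours in culture (day 1) and enteroids after 72 hours (day 3). The mice were age-matched littermates of both sexes, 8 to 12 weeks old, and the null allele was not restricted to a tissue. Enteroids are epithelial cultures that form buds like crypts, grown here in Matrigel with EGF, Noggin and R-spondin.

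Paneth cells sit at the base of the small intestinal crypt, between the stem cells, and release granules of antimicrobial proteins into the crypt lumen. They arise from the secretory lineage, which depends on the transcription factor *Atoh1*, and their maturation depends on Wnt signaling. MTGR1, encoded by *Cbfa2t2*, is a transcriptional co-repressor. *Lyz1* encodes the lysozyme of Paneth cells, which cuts bacterial cell walls, and *Lyz2* encodes the lysozyme of macrophages and other myeloid cells. *Ang4* encodes a microbicidal ribonuclease, *Itln1* a lectin that binds microbial sugars, and *Mmp7* the metalloprotease matrilysin, which activates the alpha-defensins. *Mptx1* and *Mptx2* encode mucosal pentraxins, relatives of C-reactive protein.

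On GRCm38, *Lyz2* (ENSMUSG00000069516.8, chr10:117277331-117282321) and *Lyz1* (ENSMUSG00000069515.6, chr10:117287797-117292868) lie side by side on the minus strand, with 5475 bases between them. *Mptx2* (ENSMUSG00000079180.4, chr1:173274382-173277777, minus strand) and *Mptx1* (ENSMUSG00000026531.4, chr1:174330518-174332873, plus strand) share a chromosome with *Itln1* (ENSMUSG00000038209.12, chr1:171518122-171535294, minus strand). *Mmp7* (ENSMUSG00000018623.9) lies at chr9:7692090-7699585 on the plus strand and *Ang4* (ENSMUSG00000060615.5) at chr14:51763878-51773590 on the minus strand. The longest transcripts of the lysozymes were identical at 96.0% of 1262 aligned bases and those of the mucosal pentraxins at 92.4% of 794. Of all stretches of 50 bases in the transcripts, 16.1% of those of *Lyz1* also occurred in *Lyz2*, and 18% of those of *Mptx2* in *Mptx1*. Reads of that length from these stretches cannot be assigned to 1 gene of the pair by sequence, so the pairs were also summed. For *Ang4*, 4.70% of the stretches also occurred in *Ang2* or *Ang5*, for *Itln1* 0.972% in *Gm9765*, and for *Mmp7* 0%.

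The promoters of the 2 pairs are printed to show how far genes with nearly the same transcript differ near the start site. Each is the 250 bases before the start site, 5′ to 3′ on the gene's strand, from RefSeq on GRCm38.p6, where all 7 genes were found. For *Lyz2* and *Mptx2* this start site lies inside the gene coordinates given above, so the last bases of their windows fall within those genes. Capitals mark bases that differ from the aligned partner or that the partner lacks inside the alignment. Bases beyond either end of the alignment have no partner and stay in small letters. The windows are chr10:117292869-117293118 for *Lyz1* and chr10:117282273-117282522 for *Lyz2*, and 80.6% of 248 aligned bases were identical.
Lyz1: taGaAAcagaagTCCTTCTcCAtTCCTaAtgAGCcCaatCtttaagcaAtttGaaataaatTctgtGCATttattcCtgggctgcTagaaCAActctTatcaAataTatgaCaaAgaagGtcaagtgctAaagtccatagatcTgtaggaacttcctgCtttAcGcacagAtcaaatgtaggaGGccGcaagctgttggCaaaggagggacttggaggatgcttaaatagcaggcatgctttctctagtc
Lyz2: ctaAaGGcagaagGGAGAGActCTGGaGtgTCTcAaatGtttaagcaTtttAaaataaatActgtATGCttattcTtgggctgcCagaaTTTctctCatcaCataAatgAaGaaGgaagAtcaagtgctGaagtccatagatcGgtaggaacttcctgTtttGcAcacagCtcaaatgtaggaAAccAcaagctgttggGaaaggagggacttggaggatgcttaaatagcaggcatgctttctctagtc
The windows of the pentraxins are chr1:174330268-174330517 (*Mptx1*) and chr1:173277757-173278006 (*Mptx2*), and 86.4% of 228 aligned bases were identical.
Mptx1: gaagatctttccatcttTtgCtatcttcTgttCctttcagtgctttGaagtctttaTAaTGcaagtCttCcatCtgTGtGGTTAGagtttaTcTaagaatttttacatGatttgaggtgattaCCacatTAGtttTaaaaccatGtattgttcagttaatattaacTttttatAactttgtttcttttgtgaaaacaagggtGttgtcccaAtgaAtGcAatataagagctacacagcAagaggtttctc
Mptx2: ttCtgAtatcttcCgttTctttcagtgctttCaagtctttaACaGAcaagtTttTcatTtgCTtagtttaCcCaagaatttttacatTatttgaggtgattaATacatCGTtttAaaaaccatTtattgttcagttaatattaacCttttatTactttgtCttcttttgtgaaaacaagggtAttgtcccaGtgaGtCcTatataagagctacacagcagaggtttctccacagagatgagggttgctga
The promoter of *Mmp7* (chr9:7691840-7692089) is shown for its pair of TATAAA words, here in capitals, which began 123 and 26 bases before the start site.
Mmp7: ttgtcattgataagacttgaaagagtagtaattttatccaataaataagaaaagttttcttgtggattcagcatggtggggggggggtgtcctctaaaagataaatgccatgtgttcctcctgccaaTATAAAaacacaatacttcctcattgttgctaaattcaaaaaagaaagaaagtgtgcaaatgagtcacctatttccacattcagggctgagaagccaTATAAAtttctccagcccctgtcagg
The search covered 5 words on both strands, from 250 bases before to 50 after each start site, over 32851 windows. TATAAA occurred in *Mmp7* and *Mptx1* and in 13.6% of all windows. In *Mptx1* it lay on the strand opposite to the gene, 198 and 82 bases before the start site. CTTTGAT and CTTTGAA, forms of the site of the Wnt effectors of the TCF family, occurred in *Mmp7* and *Mptx1* respectively, and in 3.73% and 5.13% of all windows. In *Mmp7* CTTTGAT lay on the opposite strand, 4 bases after and 247 bases before a start site. Neither position is in the promoter printed above. The E-box words, bound by factors of the class of ATOH1, were CAGCTG, which reads the same on both strands, found in *Lyz1* and *Lyz2* and in 16.3% of all windows, and CAGATG, found in *Ang4* and *Mptx1* and in 17.1%. CAGCTG began 6 bases after the start site in *Lyz1* and *Lyz2*, outside the promoters printed above. No word occurred in the window of *Itln1* or *Mptx2*.

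The libraries held 22035316 to 29661084 reads on genes, with a median of 26258539. Values are counts divided by 1 factor per library, called normalized counts, and tables of different time points were scaled separately. The 8 epithelial markers were above 0 in every library. The transcript of the targeted gene, *Cbfa2t2*, was not lower in the *Mtgr1*-/- libraries. Its normalized counts lay between 523 and 614 in WT crypts and between 466 and 697 in those labelled *Mtgr1*-/-, with log2 fold changes of -0.047, 0.37 and 0.056 for crypts, day 1 and day 3 (adjusted p = 0.917, 0.0557 and 0.686, limma). The total over this gene therefore does not check the labels, and genotype is given here as labelled.

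In WT crypts *Lyz1* was the most abundant of the 7 per length, and *Lyz2* and *Mptx1* the least. Levels per length are CPM, each gene's share of its library scaled to the same total for all libraries, divided by kilobases of exon. The WT crypt level of *Lyz1* was 1811 ± 42.9, of *Itln1* 718 ± 129, of *Mptx2* 294 ± 31.8, of *Ang4* 209 ± 7.24 and of *Mmp7* 85.3 ± 9.02 (SD, n = 3). The 3 libraries of each of these genes lay apart from those of its neighbours in the order. *Lyz2* (1.02 to 24.3) and *Mptx1* (1.51 to 5.30) overlapped each other. Together the 7 genes took 0.359% ± 0.0150 of all counts in WT crypts, 0.186% ± 0.0180 in WT day 1 enteroids and 0.285% ± 0.0534 in WT day 3 enteroids. The alpha-defensins, the main granule peptides of the same cells, took 0.823% ± 0.158, 0.317% ± 0.103 and 0.485% ± 0.0604.

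The order of the WT levels differed between crypts and cultures, most of all for *Mptx2*. Since the tables were scaled separately, levels are set side by side as shares of each library, with no test. The level of *Mptx2* was 294 CPM per kilobase in crypts, 60.8 ± 15.7 at day 1 and 23.5 ± 2.52 at day 3. It was 12.5-fold lower at day 3 than in crypts. Each of the 3 WT mice showed this order, and the libraries of the 3 time points did not overlap. The level of *Ang4* was 209 in crypts, and in culture 189 ± 23.3 at day 1 and 335 ± 61.1 at day 3. It stood above *Mptx2* in cultures and below it in crypts. *Lyz1* was 921 ± 118 at day 1 and 1284 ± 274 at day 3, *Itln1* 392.3 ± 17.3 and 776 ± 127, and *Mmp7* 63.3 ± 11.8 and 82.6 ± 8.16. All 3 were lower at day 1 than at day 3 in each WT mouse. At day 1 the libraries of *Mmp7* and *Mptx2* overlapped, as did those of *Lyz2* and *Mptx1*.

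**Figure D1:**
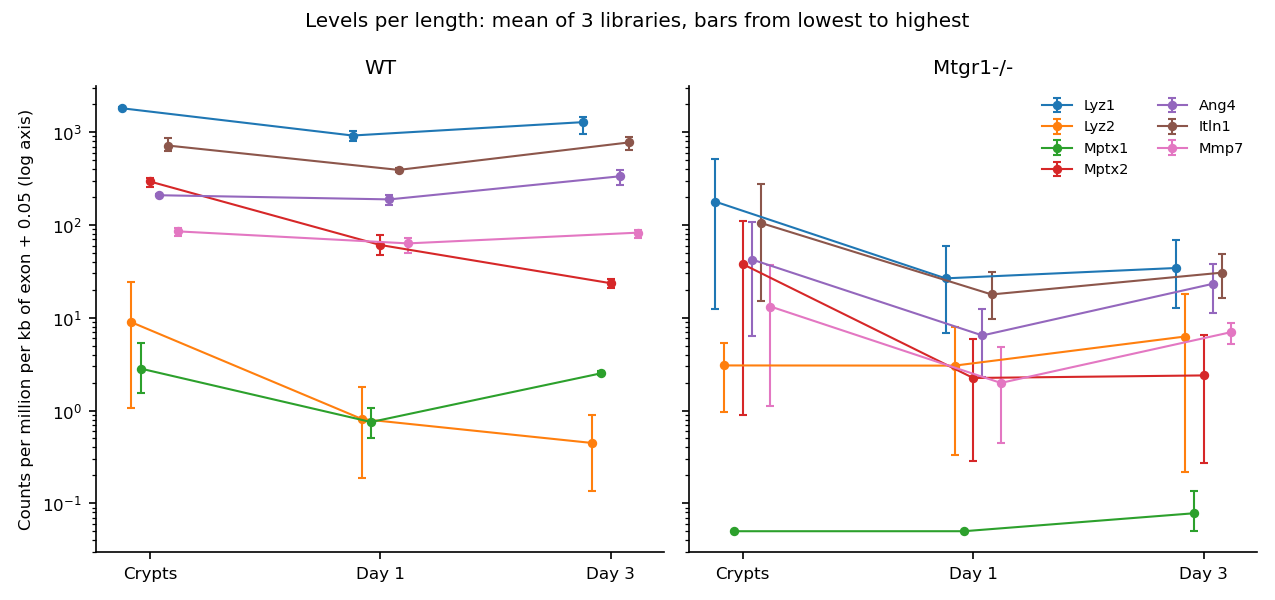
Level of each gene per length (CPM per kilobase of exon plus 0.05, log axis) in WT (left) and *Mtgr1*-/- (right) libraries at the 3 time points. Points are means of 3 libraries and bars run from the lowest to the highest. In WT the level of *Mptx2* was 294 in crypts and 23.5 at day 3, while that of *Ang4* was 209 and 335.

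In crypts, 6 of the 7 genes lay lower in every *Mtgr1*-/- library than in every WT library, but only *Mptx1* passed the test. In the other 5 the library of *Mtgr1*-/- mouse 2 stood far above those of mice 1 and 3. Of all genes tested, 13.5% were lower without overlap. *Lyz1* measured 56473, 59796 and 58268 normalized counts in WT mice 1 to 3, and 438, 15296 and 426 in *Mtgr1*-/- mice 1 to 3. *Itln1* measured 17862, 19267 and 25449.9 against 655, 7479 and 469. The lowest WT library of each gene was over the highest *Mtgr1*-/- library, 3.69-fold for *Lyz1* and 2.39-fold for *Itln1*.

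*Ang4* measured 3691, 3659.9 and 3971 in WT crypts and 229, 1811 and 122 in those of *Mtgr1*-/- mice. *Mmp7* measured 2022, 2368 and 2572 against 36.7, 941 and 30.5. *Mptx2* measured 6079, 6449.6 and 5295 against 32.0, 2094 and 18.3. All 3 genes followed the same order of *Mtgr1*-/- mice as *Lyz1*, with mouse 2 highest and mouse 3 lowest. *Mptx1* measured 30.7, 30.7 and 109 in WT crypts and 0 in all 3 of *Mtgr1*-/- mice, and here mouse 2 did not stand apart.

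**Figure D2:**
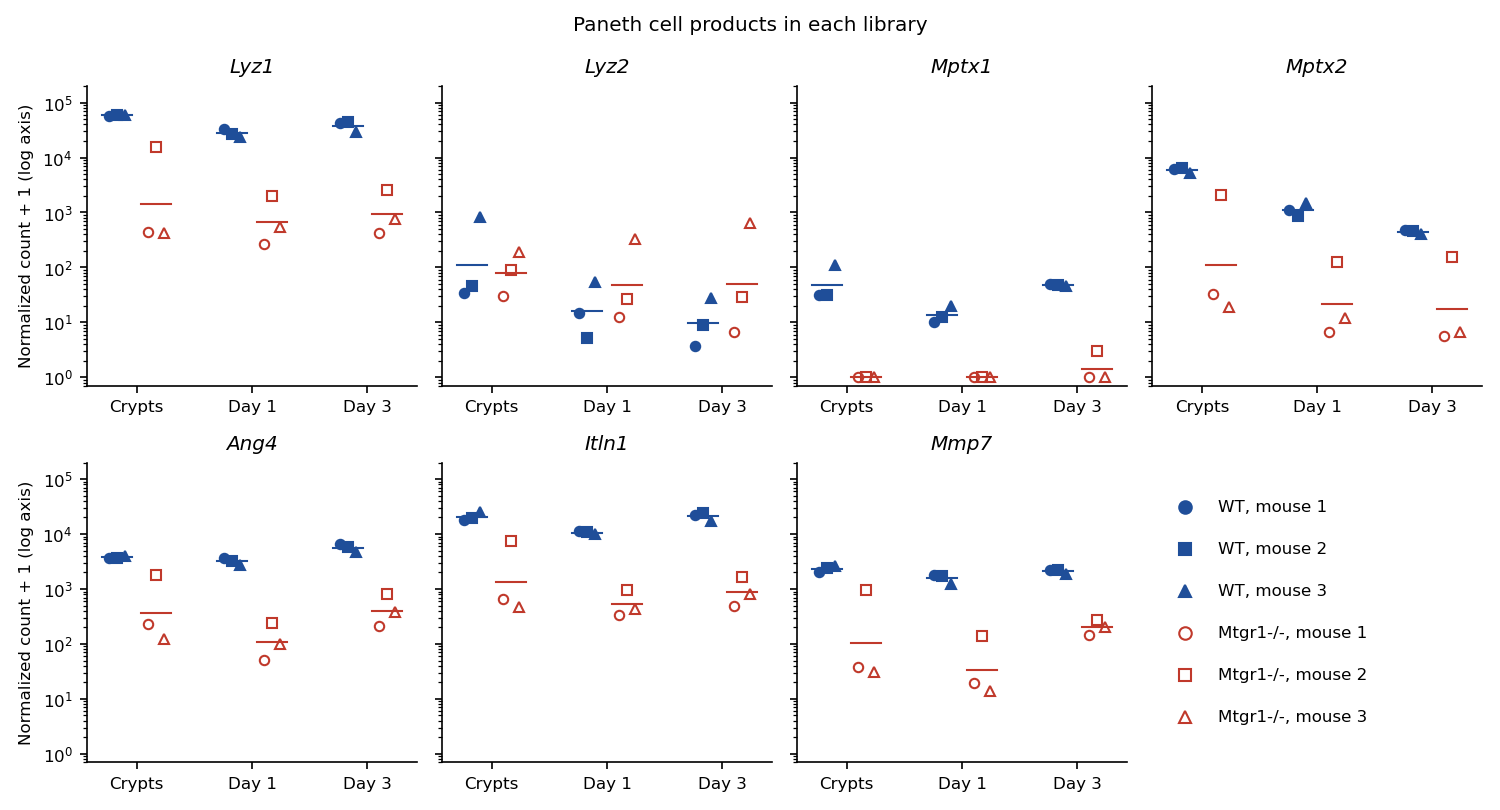
Normalized count plus 1 (log axis) of each gene in each of the 18 libraries, WT in filled blue and *Mtgr1*-/- in open red symbols, with 1 symbol shape per mouse number and lines at the means of the log values. Apart from *Lyz2*, every *Mtgr1*-/- library lay below every WT library of its time point, and *Mtgr1*-/- mouse 2 was the highest of its group for *Lyz1*, *Mptx2*, *Ang4*, *Itln1* and *Mmp7* throughout.

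The test between genotypes was limma on log2(normalized count + 1), run within each table on genes whose mean reached 10, and this scale understates changes of low counts. The crypt log2 fold changes, *Mtgr1*-/- against WT, were -5.36 ± 1.3 (SE) for *Lyz1*, -3.96 ± 0.97 for *Itln1*, -3.34 ± 0.89 for *Ang4*, -4.48 ± 1.22 for *Mmp7* and -5.75 ± 1.63 for *Mptx2*. The adjusted p-values of these 5 lay between 0.0734 and 0.109 (limma, Benjamini-Hochberg over 12980 genes). These values average logs, and edgeR on the recovered reads, which compares means, gave smaller log2 fold changes of -3.44, -2.87, -2.40, -2.79 and -3.06 for the same genes, none of which passed. *Mptx1* passed with -5.59 ± 0.71 (adjusted p = 0.0082, limma), which makes 1 of 7 genes called lower where 3.15% of all genes were. It cleared the minimum mean through its WT libraries alone. Its log2 fold change is set by the pseudocount, with -8.88 at 0.1 and -2.81 at 8, and is no measure of size. Without the WT library of mouse 1 its adjusted p was 0.0508 (limma). With all *Mtgr1*-/- libraries at 0, the WT mean of *Mptx1* was at least 19.6-fold higher than the 3 reads per library taken as the limit of detection, and at least 10.5-fold higher without WT mouse 3.

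Without the crypt library of *Mtgr1*-/- mouse 2, 6 of the 7 genes passed, where 2.9% of all genes were called lower. Leaving out any other crypt library gave 0 or 1. Mouse 2 is singled out because its values stood highest for these same genes. Its removal was bound to narrow the spread, so the p-values of this fit are no added support. The log2 fold change of *Lyz1* was then -7.07 ± 0.09, of *Itln1* -5.22 ± 0.21, of *Ang4* -4.49 ± 0.26, of *Mmp7* -6.07 ± 0.16 and of *Mptx2* -7.87 ± 0.24, with adjusted p-values between 4.93e-06 and 0.000687 (limma, 3 WT against 2 libraries). *Mptx1* passed here too (-5.59, adjusted p = 0.0191, limma). The alpha-defensins moved in the same way, with 0 of 21 called with all libraries (limma, 21 of 21 at an unadjusted p under 0.05, 0 in edgeR and 2 in DESeq2) and 21 of 21 without mouse 2. In all 21 mouse 2 was the highest *Mtgr1*-/- library. In the goblet cell list, 9 of 9 genes tested were lower with all libraries, beside 3.15% of all genes, and 9 of 9 without mouse 2. The summed level of that list in mouse 2 (271 CPM) lay between those of mice 1 and 3 (207 and 291). The sum does not describe each gene, as *Spink4* of that list stood at 8.19, 34.7 and 8.61 CPM in *Mtgr1*-/- mice 1 to 3. The enteroendocrine list gave 8 of 8 in both fits, with 14.2 CPM in mouse 2 against 12.1 and 17.0. The 3 WT crypts held 6097 to 6938 CPM of the goblet list and 287 to 479 of the enteroendocrine list. In bulk RNA, fewer Paneth cells and less of these transcripts per cell cannot be told apart.

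**Figure D3:**
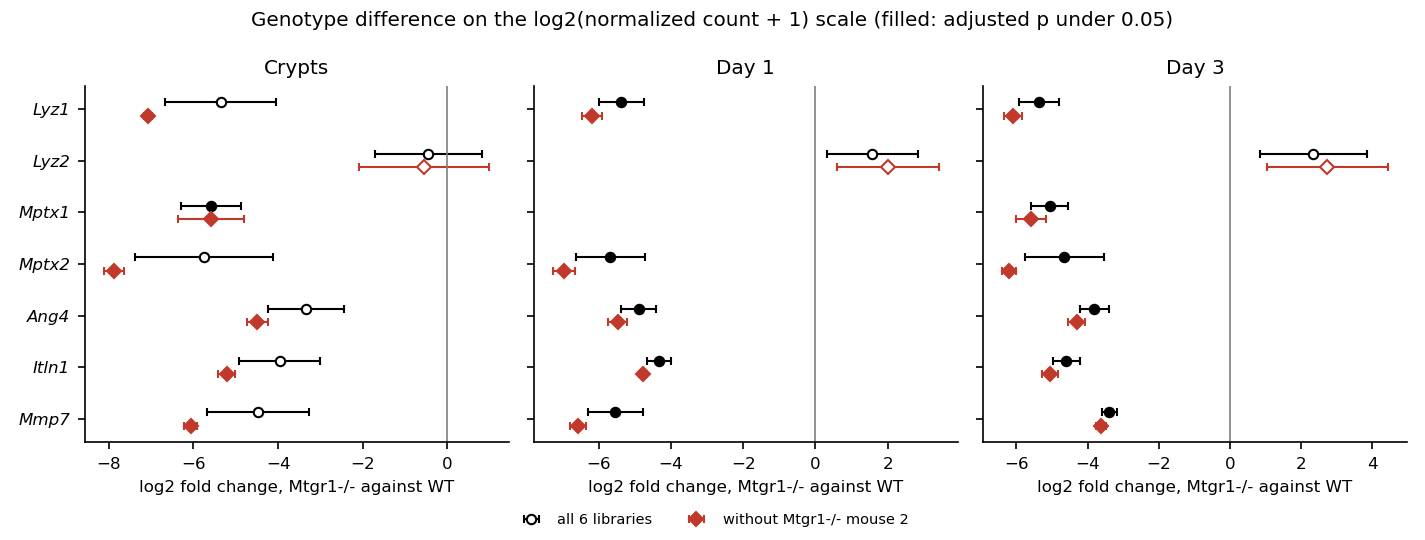
Log2 fold change of each gene, *Mtgr1*-/- against WT, with its SE, in crypts, day 1 and day 3 enteroids, from all 6 libraries (black) and without *Mtgr1*-/- mouse 2 (red). Filled symbols have an adjusted p under 0.05. In crypts 1 of 7 genes passed with all libraries and 6 of 7 without mouse 2, while in cultures the calls did not differ between the fits. Mouse 2 was singled out for its high values of these genes.

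At day 1, all 5 abundant genes of the set passed the test as lower in *Mtgr1*-/- enteroids. *Lyz1* measured 32441, 27119 and 23784 in WT mice 1 to 3 and 265, 2026 and 543 in *Mtgr1*-/- mice (-5.38 ± 0.63 on the log2 scale, adjusted p = 0.000435, limma). *Itln1* measured 11218, 10692 and 10086 against 342, 972 and 439 (-4.34 ± 0.33, adjusted p = 0.000109, limma). *Ang4* measured 3682, 3166 and 2732 against 50.1, 239.9 and 98.2 (-4.89 ± 0.48, adjusted p = 0.000246, limma). Mouse 2 was again the highest of the *Mtgr1*-/- libraries, but at 7.29%, 9.11% and 7.51% of the WT mean for *Lyz1*, *Itln1* and *Ang4*, where its crypts had held 26.3%, 35.9% and 48.0%.

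*Mmp7* measured 1821, 1754 and 1257 in WT day 1 enteroids and 18.7, 140.3 and 13.2 in *Mtgr1*-/- (-5.54 ± 0.76, adjusted p = 0.000803, limma). *Mptx2* measured 1132, 861 and 1464 against 5.83, 127 and 11.0 (-5.68 ± 0.95, adjusted p = 0.00178, limma). The groups did not overlap for either gene. *Mptx1* measured 9.15, 11.5 and 19.3 in WT and 0 in all *Mtgr1*-/- libraries, at least 4.13-fold above the limit of detection, and fell under the minimum mean, so that 6 of the 7 genes were tested and 5 called lower. Of all 12587 genes tested at day 1, 28.9% were called lower and 33.9% were lower without overlap. When libraries were scaled to equal totals in place of the deposited factors, the median gene shifted by -0.33 on the log2 scale and 71.7% of the calls were lower in place of 49.1%. With equal totals each of the 5 genes still passed, with log2 fold changes of -4.66 (*Itln1*) or below.

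Lists of other cell types moved with the 5 genes in culture. At day 1, 9 of 9 goblet, 7 of 8 enteroendocrine and 8 of 8 stem cell markers were called lower, and 9 of 10 enterocyte markers higher. At day 3 these counts were 9 of 9, 8 of 8, 8 of 8 and 9 of 10. Of all genes tested, 28.9% were called lower and 30.0% higher at day 1, and 29.1% and 29.9% at day 3. The summed stem cell list ran from 1919 to 3106 CPM in WT and from 151 to 209 in *Mtgr1*-/- enteroids at day 1, and the enterocyte list from 11395 to 14086 against 18730.1 to 25938. In crypts, 2 of 8 stem cell markers and 1 of 10 enterocyte markers were called lower and none higher. Of all genes tested there, 3.15% were called lower and 1.58% higher. The summed stem cell list ran from 1435 to 1843 CPM in WT crypts and from 204 to 499 in *Mtgr1*-/- crypts. This sum does not describe each gene. The median log2 fold change of the 8 stem cell markers in crypts was -0.57, and 3 of 8 were lower without overlap, beside 13.5% of all genes. The enterocyte list ran from 20383 to 25709 against 12702 to 19378. Of 6 tuft cell markers tested, none was called in crypts, and 5 were called lower at day 1 and at day 3. In crypts 4 of the 6 were nonetheless higher without overlap, as were 1560 of all 12980 genes tested. The summed tuft list ran from 55.3 to 61.3 CPM in WT crypts and from 85.6 to 275 in *Mtgr1*-/- crypts. The part of these shifts in the values of the 5 genes was not tested.

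At day 3, 6 of the 7 genes passed as lower, where 29.1% of the 12782 genes tested were called lower and 34.2% were lower without overlap. *Lyz1* measured 42581, 44225 and 29609 in WT mice 1 to 3 and 421, 2549 and 747 in *Mtgr1*-/- mice (-5.36 ± 0.56, adjusted p = 0.000159, limma). *Itln1* measured 21747, 24277 and 17595 against 485, 1643 and 825 (-4.59 ± 0.38, adjusted p = 5.13e-05, limma). *Ang4* measured 6596, 5777 and 4664 against 207, 798 and 387 (-3.81 ± 0.41, adjusted p = 0.000191, limma). The groups lay at least 5.84-fold apart for each of these 3 genes, as the lowest WT over the highest *Mtgr1*-/- library.

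*Mmp7* measured 2210.2, 2236 and 1894 in WT day 3 enteroids and 144, 277 and 199 in *Mtgr1*-/- (-3.39 ± 0.21, adjusted p = 1.66e-05, limma). *Mptx1* measured 49.3, 47.2 and 45.5 in WT, and 0, 1.99 and 0 in *Mtgr1*-/- (-5.07 ± 0.53, adjusted p = 0.000166, limma). It cleared the minimum mean through WT alone here too, and its log2 fold change depended on the pseudocount, with -7.43 at 0.1 and -2.68 at 8. The value of 1.99 stands for 2 reads, and the summed *Mtgr1*-/- reads came to 1.32% of the WT rate (95% exact interval 0.158% to 4.84%, counting error only). *Mptx2* measured 485, 456 and 401 against 4.55, 153 and 5.61 (-4.65 ± 1.11, adjusted p = 0.00754, limma). In *Mtgr1*-/- mouse 2 it stood at 34.2% of the WT mean, against 1.02% and 1.3% in mice 1 and 3, and DESeq2 on the recovered reads gave an adjusted p of 0.0503. With equal totals per library, the median gene shifted by -0.20 and 64.8% of all calls were lower in place of 49.3%, and the 6 genes still passed, with log2 fold changes of -3.59 (*Mmp7*) or below.

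**Figure D4:**
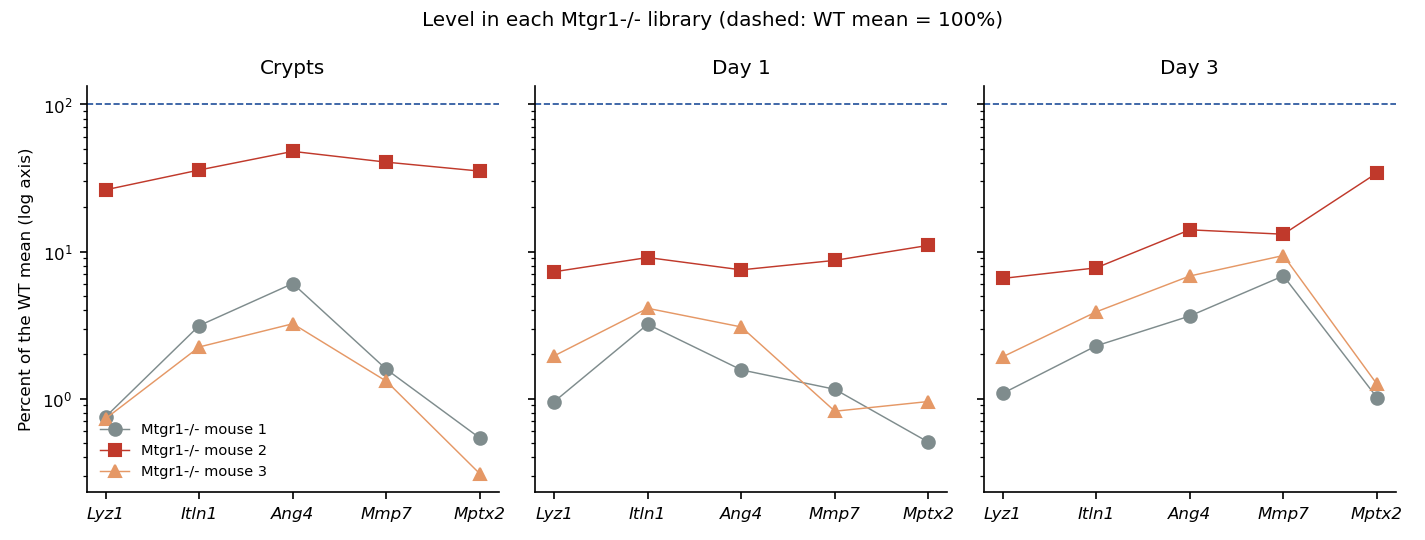
Level of the 5 abundant genes in each *Mtgr1*-/- library as a percent of the WT mean of the same time point (log axis), with the WT mean at 100% as a dashed line. Mouse 2 (squares) held 26.3% to 48.0% in crypts, 7.29% to 11.0% at day 1 and 6.57% to 34.2% at day 3, where *Mptx2* was the highest. Mice 1 and 3 lay below it for every gene at every time point.

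The rank of *Mtgr1*-/- mouse 2 was shared by *Lyz1*, *Itln1*, *Ang4*, *Mmp7* and *Mptx2* at all 3 time points, and it was the highest *Mtgr1*-/- library for 37.2%, 37.4% and 39.4% of all genes tested in crypts, day 1 and day 3. Among genes called lower, it was the highest for 43.0%, 73.2% and 11.5%, so that at day 1 most genes that fell had the same rank. For the alpha-defensins it was the highest in 21 of 21, 20 of 21 and 20 of 23. As a share of its own library, *Lyz1* of mouse 2 at day 1 was 0.116 times that of its crypts, while *Mtgr1*-/- mice 1 and 3 gave 0.466 and 1.11 and the WT mice 0.445 to 0.578. *Mmp7* in *Mtgr1*-/- enteroids was higher as a share of the library at day 3 than at day 1 in each mouse, 9.26-fold, 1.82-fold and 17.2-fold in mice 1 to 3, against 1.22-fold to 1.47-fold in WT mice. These ratios carry no test.

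The genotype difference itself was compared between time points with limma on the 18 libraries together, taking mouse as a random term. The correlation within a mouse, estimated over all genes tested, was -0.0048, so this term took almost no account of the mouse. A factor shared by a whole table cancels in this comparison, but the factors of single libraries do not. With equal totals per library, the difference for *Lyz1* between crypts and day 1 was -0.37 in place of -0.019. None of the 6 genes tested passed for any of the 3 changes (limma, 0 also at an unadjusted p under 0.05), where 41.4% of all genes passed from crypts to day 1, 31.6% from crypts to day 3 and 0.0329% from day 1 to day 3. For *Lyz1* the log2 fold change differed by -0.019 ± 1.5 (SE) between crypts and day 1 (adjusted p = 0.993, limma). For *Ang4* it was 1.55 lower at day 1 than in crypts, a difference of -1.55 ± 1.06 (adjusted p = 0.254, limma). With the mouse as a fixed replicate block this difference passed (adjusted p = 0.0435, limma). Under that block the SE for *Lyz1* between crypts and day 1 was 0.68. *Lyz2* from crypts to day 3 and *Mmp7* from day 1 to day 3 then had unadjusted p-values of 0.017 and 0.0231 (limma). Neither passed (adjusted p = 0.0547 and 0.483, limma). Without *Mtgr1*-/- mouse 2, the fall of *Mmp7* was smaller at day 3 than in crypts by 2.44 ± 0.27 (adjusted p = 0.000168, limma). It was smaller at day 3 than at day 1 by 2.94 ± 0.27 (adjusted p = 0.000933, limma). The fall of *Mptx2* was smaller at day 3 than in crypts by 1.67 ± 0.39 (adjusted p = 0.0106, limma). Mouse 2 was again singled out for its high values, so these p-values share the limit of the crypt fit without it.

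*Lyz2* did not follow *Lyz1*. It measured 33.5, 45.5 and 825 in WT crypts of mice 1 to 3, and 29.2, 89.4 and 187 in those of *Mtgr1*-/- mice. At day 1 it measured 13.7, 4.17 and 53.6 against 11.7, 25.6 and 328. At day 3 it measured 2.69, 8.02 and 27.1 against 5.69, 27.8 and 637. Mouse 3 was the highest of its group at every time point and in both genotypes, and the genotypes overlapped throughout. The log2 fold changes were -0.46 ± 1.3, 1.58 ± 1.27 and 2.35 ± 1.51 (adjusted p = 0.892, 0.312 and 0.210, limma). In crypts the sign turned without WT mouse 3 (1.00) or without *Mtgr1*-/- mouse 1 (0.25). At day 3 the gene passed as higher without *Mtgr1*-/- mouse 1, with a replicate block and in edgeR on the recovered reads (adjusted p = 0.0334 and 0.0332 in limma and 0.0471 in edgeR), and without *Mtgr1*-/- mouse 3 its log2 fold change was 0.51.

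*Lyz2* made up 1.4% of the lysozyme counts at most in WT libraries. In *Mtgr1*-/- mouse 3 it made up 30.5% of those in its crypts, 37.6% at day 1 and 46.0% at day 3. In *Mtgr1*-/- mice 1 and 2 it made up between 0.581% and 6.25%. The sum of *Lyz1* and *Lyz2* gave log2 fold changes of -5.15 ± 1.23 in crypts, -5.12 ± 0.61 at day 1 and -5.05 ± 0.55 at day 3 (adjusted p = 0.0695, 0.000488 and 0.000205, limma). That of *Mptx1* and *Mptx2* gave -5.76 ± 1.63, -5.70 ± 0.95 and -4.79 ± 1.11 (adjusted p = 0.109, 0.00177 and 0.00678, limma). The sums passed at the same time points as *Lyz1* and *Mptx2* did alone.

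Most markers of myeloid cells were highest in the same libraries as *Lyz2*. In crypts, 14 of the 18 listed myeloid markers were highest in WT mouse 3. In *Mtgr1*-/- mouse 3, 12 of 18 were highest at day 1 and 14 of 17 at day 3. Those libraries were the highest for 27.3%, 24.6% and 9.65% of all genes at the same time points. *Mpeg1*, a pore protein of macrophages, measured 17.2, 32.7 and 1182 in WT crypts and 10.4, 14.3 and 95.5 in *Mtgr1*-/-. At day 3 it measured 0, 0.891 and 4.84 against 0, 9.94 and 193. The summed list ran from 149.5 to 560 CPM in WT crypts and from 132 to 158 in *Mtgr1*-/- crypts, and from 48.9 to 52.6 against 66.9 to 109 at day 3. In WT day 3 enteroids *Tyrobp*, *C1qb*, *C1qc* and *S100a8* were at 0 in all 3 libraries, while in *Mtgr1*-/- mouse 3 none of the 17 was at 0. Markers of other cells moved with them. In WT crypts the lymphoid list summed to 206, 100.1 and 669 CPM and the stromal list to 6.16, 5.84 and 28.9 CPM in mice 1 to 3, and *Mtgr1*-/- mouse 3 was the highest of its group for both lists at every time point. The part of these cells in the values of *Lyz2* was not tested.

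**Figure D5:**
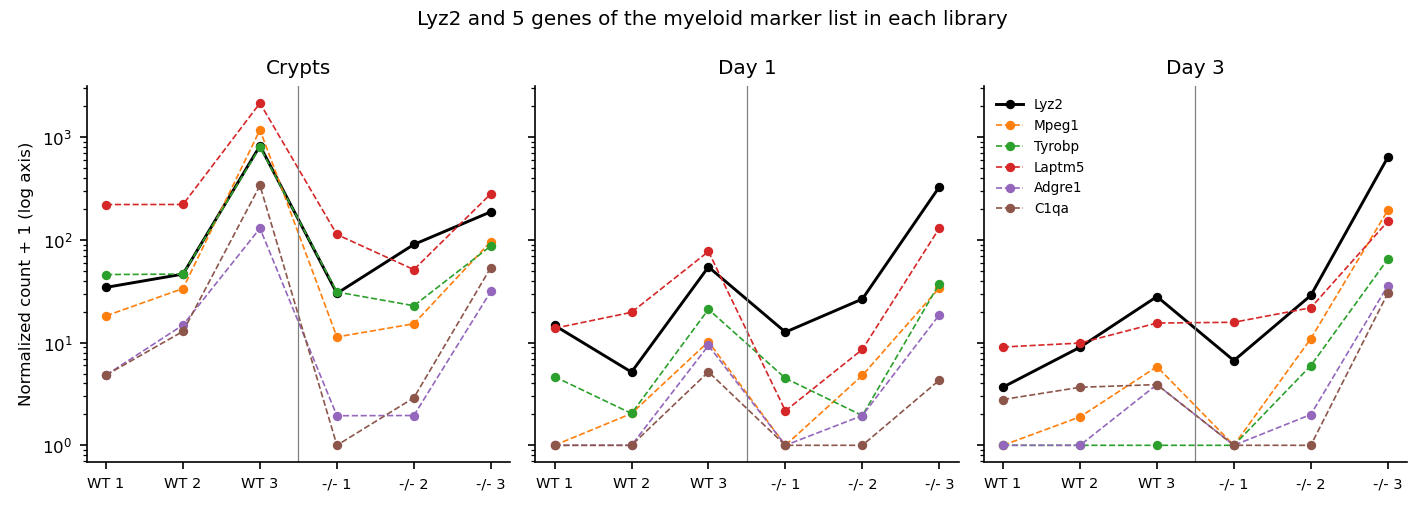
Normalized count plus 1 (log axis) of *Lyz2* (black) and of 5 genes of the myeloid marker list in each library, WT mice 1 to 3 left and *Mtgr1*-/- mice 1 to 3 right of the grey line. *Lyz2* was highest in WT mouse 3 in crypts (825) and in *Mtgr1*-/- mouse 3 at day 1 (328) and day 3 (637), as was *Mpeg1* (1182, 33.1 and 193).

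Among relatives of the 7 genes, the ribonucleases also fell in culture, where all 4 tested, *Ang4* among them, were called lower, beside 28.9% of all genes at day 1 and 29.1% at day 3. *Ang*, angiogenin, had log2 fold changes of -0.25 in crypts, -0.90 at day 1 and -0.78 at day 3 (adjusted p = 0.373, 0.00651 and 0.00225, limma), and *Rnase4*, which shares its promoters and first exons, so that their reads may be split between them, -0.39, -1.06 and -0.71 (adjusted p = 0.196, 0.00146 and 0.00197, limma). *Rnase1*, the pancreatic-type ribonuclease, fell by 2.43, 3.15 and 3.95 on the log2 scale (adjusted p = 0.0345, 9.31e-05 and 1.91e-06, limma), and at day 3 its WT libraries lay between 1153 and 1399 and its *Mtgr1*-/- libraries between 77.4 and 86.5. Unlike *Ang4*, *Rnase1* passed with all crypt libraries. *Rnase6* was tested only in crypts and did not pass (-2.49, adjusted p = 0.440, limma).

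The neuronal pentraxins *Nptx1*, *Nptx2* and *Nptxr* were under the minimum mean in crypts and passed as lower in culture. Of all genes tested, 28.9% were called lower at day 1 and 29.1% at day 3. *Nptx2* measured 83.2, 61.4 and 101 in WT day 1 enteroids and 2.33, 1.90 and 1.1 in *Mtgr1*-/- (-4.89 ± 0.38, adjusted p = 0.000113, limma). Its log2 fold change at day 3 was -3.52. At day 1 *Nptx2* cleared the minimum mean through its WT libraries alone, and its *Mtgr1*-/- counts lay near the pseudocount. Its log2 fold change there is no measure of size. *Crp*, C-reactive protein, did not pass at day 1 (0.21, adjusted p = 0.735, limma), and *Apcs* stayed under 5 normalized counts in every library. Of the other lysozyme relatives only *Lyzl4* and *Spaca3* were listed, both under 3 normalized counts throughout.

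Among metalloproteases and their inhibitors, *Mmp7* included, 1 of 12 tested was called lower in crypts, 2 lower and 2 higher of 9 at day 1, and 2 lower and 4 higher of 9 at day 3. Beside 28.9% lower and 30.0% higher among all genes at day 1, and 29.1% and 29.9% at day 3, these few genes do not set the family apart. *Mmp17*, a membrane-anchored metalloprotease, had log2 fold changes of -2.11, -3.37 and -3.32 (adjusted p = 0.0609, 0.00129 and 0.00136, limma). *Mmp15* and *Mmp28* were the 2 called higher at day 1 (1.35 and 1.09, adjusted p = 0.000504 and 0.0016, limma) and passed again at day 3 (1.45 and 2.07, adjusted p = 1.55e-05 and 2.8e-05, limma). *Mmp23* was the relative that passed as lower in crypts (-2.24, adjusted p = 0.0417, limma), and at day 3 it passed as higher (1.21, adjusted p = 0.00462, limma). *Mmp14* did not pass at any time point, with log2 fold changes of 0.0092, -0.077 and 0.098.

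Other genes of the Paneth cell program were mostly lower in culture. Of 25 listed genes, 6 were called lower and 0 higher in crypts, where 3.15% of all genes were lower and 1.58% higher. At day 1 16 were lower and 5 higher, beside 28.9% and 30.0% of all genes, and at day 3 18 and 6, beside 29.1% and 29.9%. The share called higher was thus not above that of all genes. The median log2 fold change of the list was -0.97, -2.43 and -1.90, beside 0.0076, -0.0080 and 0.0026 over all genes tested. The largest falls that passed in crypts were those of *Atoh1* (-4.66), the master regulator of secretory fate, *Wnt3* (-4.44), a Wnt ligand made by Paneth cells, *Reg4* (-4.27), a lectin of deep crypt secretory cells, and the secretory transcription factors *Spdef* (-3.86) and *Gfi1* (-2.61), with adjusted p-values between 0.00542 and 0.0412 (limma). For *Atoh1* the libraries read 291, 243 and 337 in WT against 3.77, 17.1 and 16.3 in *Mtgr1*-/-, with mice 2 and 3 of the *Mtgr1*-/- group close together.

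In culture the largest falls of the program were those of *Reg4* (-6.41 at day 1 and -4.60 at day 3), *Wnt3* (-6.23 and -4.49), *Pla2g2a* (-5.98 and -6.17), a secreted phospholipase, and *Clps* (-5.27 and -4.46), pancreatic colipase. *Spdef* was the fifth at day 1 (-5.10) and *Atoh1* at day 3 (-4.43). All of these had adjusted p-values of at most 0.00272 (limma). *Pla2g2a* was uneven among WT mice, with 451, 399 and 8585 normalized counts at day 3. The genes that rose most were *Pnliprp2* (3.17), *Slc30a2* (1.13) and *Tgfa* (0.74) at day 1, and *Reg3b* (3.37), *Slc30a2* (1.33) and *Pnliprp2* (1.13) at day 3, with adjusted p-values between 0.000265 and 0.0179 (limma). *Reg3b*, an antimicrobial lectin that enterocytes also make, read 3736, 67826 and 4473 in *Mtgr1*-/- day 3 enteroids and 648 to 1309.7 in WT.

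Likeness of profiles was measured as the root mean square difference over 18 libraries of log2(normalized count + 1), each gene centred on the mean of its WT libraries on that scale at each time point. Among 10529 genes with a WT mean of at least 50 in every table, those nearest to *Lyz1* were *Defa26* (0.441), *Defa24* (0.554) and *Clps* (0.582). Nearest to *Mptx2* were *Defa23* (0.609), *Defa26* (0.624) and *Defa24* (0.636). The alpha-defensins are near-identical copies of each other, so that values of single ones are uncertain. The median distance of all candidates was 3.98 from *Lyz1* and 4.18 from *Mptx2*. Each gene is centred on WT, so any gene with a large fall lies far from an unchanged one. These medians are thus no yardstick for the nearness of the alpha-defensins. *Hpd*, a tyrosine-degrading enzyme, was nearest to *Itln1* (0.408), followed by *Habp2* (0.555) and *Spink4* (0.624), a goblet cell inhibitor of proteases. *Habp2*, a serine protease, was nearest to *Mmp7* (0.462), followed by *Defa33* (0.687) and *Clps* (0.741), and *5330417C22Rik* (0.559), *Hpd* (0.564) and *Habp2* (0.625) were nearest to *Ang4*. *Mptx1*, which is low itself, was nearest to *Cck* (0.736), *Tpsg1* (0.779) and *Afp* (0.794). Among these candidates *Prex1* (1.65), *Rin3* (1.68) and *Ephx1* (1.70) were nearest to *Lyz2*. The WT means of *Mptx1* and *Lyz2* lie under the minimum of 50 in culture, as do those of myeloid genes such as *Mpeg1*. Genes of their own level there were thus not among the candidates.

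Within the set, *Ang4* and *Itln1* were the most alike (0.505), *Lyz1* and *Mptx2* stood 0.739 apart and *Ang4* and *Mmp7* 0.740. *Mptx1* was 1.80 from its paralog *Mptx2*, and *Lyz2* was between 4.32 and 5.32 from each of the other 6. The alpha-defensins, against which the set was compared, were called lower in 0 of 21 genes in crypts, 21 of 21 at day 1 and 23 of 23 at day 3. Of all genes tested, 3.15%, 28.9% and 29.1% were called lower. On the recovered reads, edgeR called 21 of 21 at day 1 and 21 of 23 at day 3, and DESeq2 20 of 21 and 20 of 23. The limma medians of the alpha-defensins were -5.14, -5.69 and -4.69 on the log2 scale. The 7 genes had medians of -4.48 in crypts (7 tested, or -4.29 with *Mptx1* at its bound), -5.13 at day 1 (6 tested) and -4.59 at day 3 (7 tested).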

How the data were processed

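RNA of 18 bulk libraries was analysed, 3 per group. The authors sequenced stranded mRNA libraries with single reads. Trimming used fastp 0.20.0, and transcripts were quantified in Salmon 1.3.0, per the submitters' notes, and summed per gene. The deposited signal of a library is its gene count divided by 1 factor per library, set within the table of each time point with DESeq2 1.26.0. The tables also hold the authors' mean over libraries and their DESeq2 fold changes, standard errors, statistics and p-values, which were not used.

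The test was limma 3.58.1 in R 4.3.3 (moderated with a trend on the mean) for log2(normalized count + 1) of genes whose mean reached 10, two-sided, 3 libraries against 3, with Benjamini-Hochberg adjustment over all genes tested and a threshold of 0.05. Changes between time points were tested over all 18 libraries for 12145 genes, with the mouse as a random effect (statmod 1.5.0). Reads were recovered as whole multiples of the smallest step of each library, 100% of values within rounding, and tested with edgeR 4.0.16 and DESeq2 1.42.0 as alternatives. The step was near 1 for the crypt library of WT mouse 2 and the day 3 library of *Mtgr1*-/- mouse 2 (0.990 and 0.994), so that whole reads are less certain there. Intervals and limits of detection cover counting error only. The fits were tested on simulated counts with the same small spread in all libraries. That does not cover genes in which a single mouse stood far above the others.

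The labels gave the group, mouse number and time point of each library. Libraries with the same number in the 2 genotypes came from different mice. At day 1 they deviated together (correlation across genes of 0.116, 0.231 and 0.216 for numbers 1 to 3), but not all did in crypts (0.0764, 0.274 and 0.346) or at day 3 (-0.0067, -0.0023 and -0.016). p-values measure the spread between 3 mice per genotype.

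The 7 genes, the lists and the tests were chosen with earlier results of these data known. Named genes are the 7 members, the 3 genes nearest to each in profile, the 5 largest falls and 3 largest rises of the Paneth list that passed, and the measured relatives. Gene models and exon lengths were taken from GENCODE M21, and Biopython 1.88 aligned the sequences. *Muc2*, *Itlnb*, *Ang2* and *Ang5* were not analysed here. The alternatives were each library left out, a smaller and a larger pseudocount, no minimum mean, a minimum of 50, equal totals, quantile normalization, no trend, a replicate block and the count tests.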

Additional observations from a re-analysis of the deposited data

How the results depend on the processing

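In crypts the number of the 7 genes called lower was 1, and ran from 0 to 6 when 1 library was left out (0 without WT mouse 1, 6 without *Mtgr1*-/- mouse 2). It was 0 with a minimum mean of 50, which leaves *Mptx1* untested. At day 1 it was 5 under every alternative but 1, which gave 6 with no minimum mean, and at day 3 it was 5 or 6. The count of all genes called in crypts was 614, ran from 175 to 605 with 1 library left out, and was 1379 with DESeq2. At day 1 it ran from 6160 to 7856 and at day 3 from 6109 to 7699 with 1 library left out.

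With 1 library left out of crypts, the log2 fold change of the summed lysozymes ran from -6.77 to -4.25 and that of the summed mucosal pentraxins from -7.89 to -4.51, and both passed without *Mtgr1*-/- mouse 2. For changes between time points, no gene passed except without *Mtgr1*-/- mouse 2, which gave 0 to 2 genes from crypts to day 3 and 0 to 1 from day 1 to day 3 over all mice left out, and with the mouse as a fixed block, which gave 1 from crypts to day 1.

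With the mouse number as a replicate block, the counts of all genes called were 562 for crypts, 8027 for day 1 and 7289 for day 3, and of the 7 genes only *Lyz2* at day 3 changed its call (adjusted p = 0.0332, limma). Directions turned for *Lyz2* in crypts (1.00 and 0.25, range -1.29 to 1.00) and, with no value passing, for changes between time points. From crypts to day 1 these were *Lyz1* (0.12 and 0.89, range -0.74 to 0.89), *Itln1* (0.44, range -0.99 to 0.44) and *Mptx2* (-0.19 and -0.76, range -0.76 to 0.92, with -0.0066 for the smaller pseudocount and -0.27 for equal totals). From crypts to day 3 they were *Lyz1* (0.095, 0.081 and 0.98, range -0.71 to 0.98), *Ang4* (0.18, range -1.24 to 0.18) and *Itln1* (0.16, range -1.34 to 0.16), and from day 1 to day 3 *Lyz1* (-0.025, -0.063 and -0.076, range -0.076 to 0.13). Unless named, these are values with 1 mouse left out, and the cause was not tested.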
